A study of Mus musculus with 2 samples.

Results

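Pigr, Fcgrt and Jchain are the genes of immunoglobulin transport across epithelium: 2 receptors, and the chain that joins immunoglobulins into the form that the first of them carries. They were chosen by their gene symbols in the array annotation, with earlier results of these data known, and each was read by 1 probe, giving 3 members among 19505 named genes. Lung cells sorted as SPC/GFP+ EpCAM+ from mice were profiled on Clariom S Mouse arrays, 1 array for mice kept in air and 1 for mice exposed to smoke, each for 3 months. SPC is the common short form of surfactant protein C, which alveolar type 2 cells secrete, and EpCAM is an adhesion molecule found on epithelia. The sources used here do not give the construct and promoter of the GFP reporter, the strain, sex and age of the mice, the kind of smoke, the number of animals or whether animals were pooled.

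The polymeric immunoglobulin receptor, encoded by Pigr, sits on the basal side of mucosal epithelial cells, binds dimeric IgA and pentameric IgM that hold the joining chain, and carries them through the cell to the airway or gut surface. There it is cut, and its outer part stays on the antibody as secretory component. The neonatal Fc receptor, whose heavy chain is encoded by Fcgrt and whose light chain is beta-2 microglobulin, binds IgG and albumin in acidified endosomes, keeps them from degradation and can move IgG in both directions across epithelium. The joining chain, encoded by Jchain, is made by plasma cells, so in a sort of epithelial cells it also serves as a sign of plasma cell RNA.

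The region upstream of Pigr is shown because Pigr is the member on which the results turn, and because an E-box near its start is known as a site for the USF transcription factors. These are the 250 bases before its transcription start, at chr1:130826434-130826683 on the plus strand (RefSeq, GRCm38.p6), with the E-box in capitals.
Pigr: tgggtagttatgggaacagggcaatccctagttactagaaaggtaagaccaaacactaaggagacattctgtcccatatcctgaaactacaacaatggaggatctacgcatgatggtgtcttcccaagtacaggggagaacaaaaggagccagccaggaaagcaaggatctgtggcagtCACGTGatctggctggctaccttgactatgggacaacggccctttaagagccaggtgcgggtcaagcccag
The E-box CACGTG, which reads the same on both strands, lies 71 to 66 bases before the start. Of 32851 RefSeq promoter windows of 300 bases (250 before and 50 after a start), 7.15% hold it. All 3 members had such a window, and CACGTG was absent from those of Fcgrt and Jchain. Among the other motifs searched on both strands, the Pigr window also held TTCNNNGAA, a STAT element, 40 to 48 bases into the transcript, which 8.30% of windows hold. The interferon element (GAAA, any 2 bases, GAAA), found in 3.44% of windows, had no match in any of the 3 windows. The same held for the STAT6 element (TTC, any 4 bases, GAA), found in 6.95% of windows, for TGANTCA, an AP-1 element (7.81%), for TTATGTAA, a D-box (0.938%), and for the NF-kB consensus (8.46%). A match or its absence describes these letters only.

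Pigr signal was higher in the smoke array, Fcgrt lay within 2-fold, and Jchain was dim on both arrays. All values are given as deposited and were taken as log2 signals from their range, since no scale is stated. With 1 array a group there was no replicate, hence neither SD nor p-value, and every difference describes these 2 samples alone. The call rule asked for a 2-fold difference (1 on the log2 scale) and for a signal of 4.57 or more, the median of all probe values, on the brighter array; that bound is called the level filter. The filter left 10419 genes, with 410 of them (3.94%) called higher in smoke and 258 (2.48%) called lower. These percentages stand beside the members as background, and nothing is read from them about the members, which were chosen with this contrast in view.

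Pigr stood at a log2 signal of 14.04 in the air sample and 17.22 in the smoke sample, a difference of 3.18, or 9.06-fold on the deposited scale. It lay below the highest value of the deposited scale, 19.93, on both arrays, so neither value was limited from above. Its difference was the 7th from the top among the 10419 genes above the filter, of which 7 (0.0672%) were at least 8-fold higher. The number of transporting cells and the amount of Pigr RNA per cell cannot be told apart in such bulk samples.

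The 200 genes nearest to Pigr in mean level, from 14.6 to 16.6, had a median difference of 0.04, and their differences ran from -0.84 (Antxr1, an anthrax toxin receptor) to 1.36 (Lrg1, a secreted leucine-rich glycoprotein of the acute phase). Pigr therefore stood beyond all 200 of them. Of these genes, 5 were called higher and 0 were called lower. The robust SD of their differences, a scaled median absolute deviation, was 0.36. Measurement error and true differences between the samples both enter that spread, which does not stand in for replicates. Probes differ in how well they report their RNA, so genes of like signal need not have like RNA abundance.

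Fcgrt stood at a log2 signal of 5.42 in the air sample and 6.07 in the smoke sample, a difference of 0.65, or 1.57-fold. The 200 genes of like level, from 5.69 to 5.80, had a median of 0.005 and a robust SD of 0.50, and 35 of them (17.5%) were at least as much higher in smoke. Of the 10419 genes above the filter, 1248 had a larger difference than Fcgrt. The Fcgrt value thus lay inside the spread of genes of like signal. B2m, which encodes the light chain that FcRn shares with MHC class I molecules, was at 18.33 on both arrays.

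Jchain stood at a log2 signal of 3.83 in the air sample and 3.47 in the smoke sample, a difference of -0.36, and was below the level filter on both arrays. Genes of like level, from 3.63 to 3.68, had a median of -0.145 and a robust SD of 0.52, and 63 of the 200 (31.5%) were at least as much lower in smoke. Jchain was therefore not separable from dim genes on either array, and no fold is given for it.

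**Figure D1:**
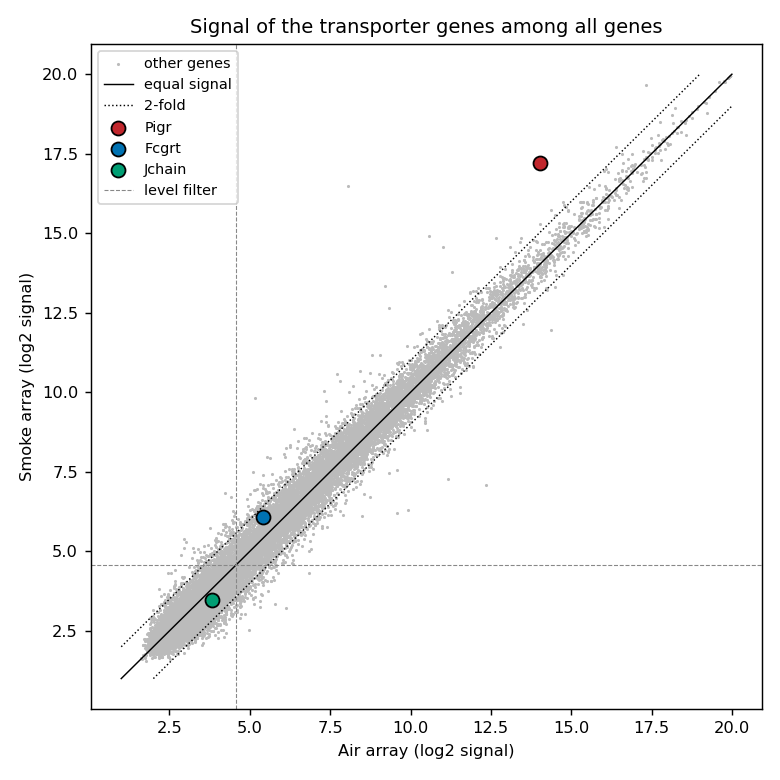
Log2 signal on the air array (horizontal axis) against the smoke array (vertical axis) for each named gene, averaged over its probes. Pigr lies above the dotted 2-fold line, at 14.04 and 17.22, Fcgrt lies between the 2-fold lines, and Jchain lies below the dashed level filter of 4.57 on both axes.

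**Figure D2:**
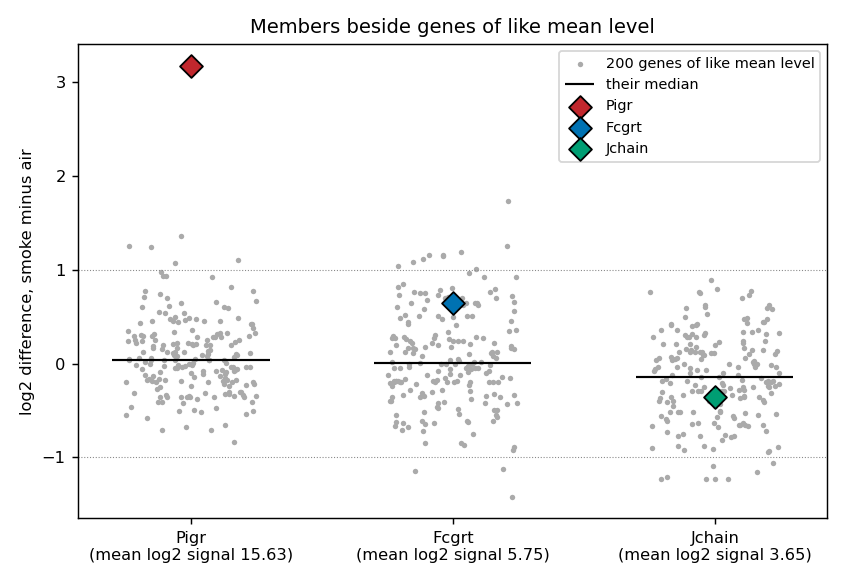
Log2 difference, smoke minus air (vertical axis), of each member (diamond) beside the 200 genes nearest to it in mean level (grey points, spread sideways for visibility; black line, their median). Pigr at 3.18 stands beyond the highest of its 200, at 1.36, whereas Fcgrt at 0.65 and Jchain at -0.36 lie among theirs.

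The genes nearest to each member in the plane of air and smoke signal were found by straight-line distance on the log2 scale, over these 2 samples only. For Pigr, 0 genes lay within a distance of 1. The nearest was Lbp, the lipopolysaccharide-binding protein, at a distance of 1.42, with 14.73 in air and 15.98 in smoke. Herpud1, of endoplasmic reticulum-associated degradation, was at 14.79 and 15.90. Lrg1 was at 14.36 and 15.72, and Trf, which encodes transferrin, was at 14.85 and 15.83. Tle5, a transcriptional corepressor of the Groucho family, was the fifth, at 15.54 and 16.46. These 5 genes had smaller differences than Pigr, from 0.92 to 1.36. All 5 are also among the 200 genes nearest to Pigr in mean level, so this repeats that comparison and adds no separate result.

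Around Fcgrt the same plane was crowded, with 1831 genes within a distance of 1, and around Jchain it held 4833. The nearest to Fcgrt were Ankmy2, Ly75, Upk3b, Trim43a and Tango2, at distances of 0.014 to 0.032, and those nearest to Jchain were Sstr4, Tnfrsf19, Dipk2b, Zbtb46 and Fignl1, at 0.010 to 0.030. Likeness to these 2 members over 2 arrays is thus shared by a large number of genes and singles out none.

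Pigr lies on chromosome 1 in a cluster of Fc receptor and interleukin genes. Fcamr, its neighbour on one side, encodes an Fc receptor for IgA and IgM. Its signal was 4.84 in air and 5.91 in smoke, higher by 1.07. This was small in linear terms, and adding an offset of 16 on the linear scale, which damps low signals, made it 0.77, under 2-fold. The gene after Fcamr in that direction, AA986860, was at 13.37 and 14.14, and Yod1, a deubiquitinase gene, was at 5.30 and 5.57. On the other side, Fcmr, the Fc receptor for IgM, was at 4.44 and 3.86, below the filter on both arrays, as were Il24, Il20, Il19 and Il10.

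Of the 10 genes next to Pigr, 5 on each side, 3 were above the filter, and Fcamr was the 1 past 2-fold. The median difference of the 10 was 0.04, and the range was -0.84 (Il20, below the filter) to 1.07 (Fcamr). Most of these values are of dim genes, and Pigr was chosen with this contrast in view. Its larger difference is therefore no separate result about this region. For Fcgrt, on chromosome 7, 7 of 10 neighbours were above the filter, and Nosip, whose product interacts with nitric oxide synthase, was the 1 past 2-fold, at 7.74 and 8.76. Rcn3, next to Fcgrt, was at 3.56 and 4.03, and Flt3l, on its other side, was at 5.33 and 5.41. For Jchain, on chromosome 5, 5 of 10 neighbours were above the filter and 0 passed 2-fold. Next to it, the enamel gene Enam was at 2.97 and 3.06, and Utp3, a nucleolar gene of ribosome assembly, was at 7.19 and 7.20.

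**Figure D3:**
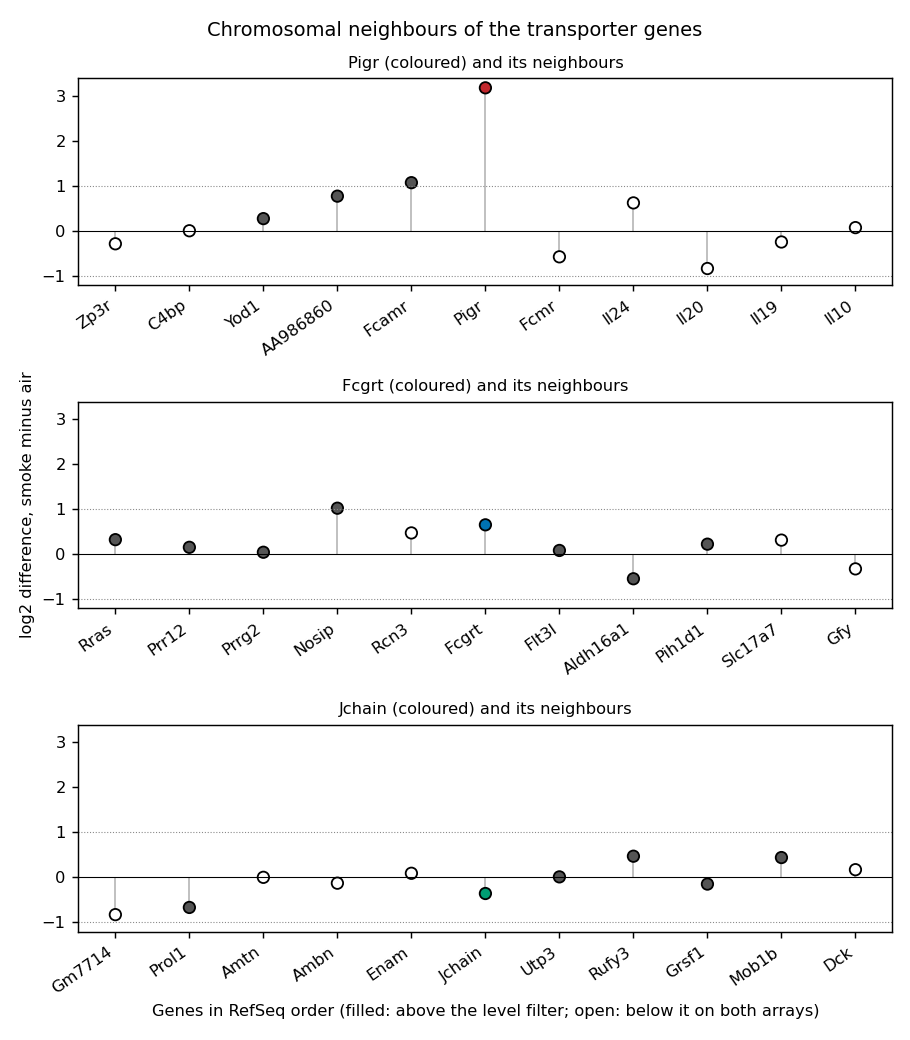
Log2 difference, smoke minus air (vertical axis), of each member and of 5 genes on each side in RefSeq gene order (horizontal axis, not to distance). Filled points are above the level filter and open points are below it on both arrays; the member is coloured whatever its level, and Jchain is below the filter. Pigr at 3.18 stands above its neighbours, which lie between -0.84 and 1.07.

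Other genes of immunoglobulin transport, of its regulation and of the signals around it were read from 6 lists holding 88 genes. Of these, 83 were measured, 65 were above the filter, and 5 were not analysed here. At least 2-fold higher in smoke were 7 of the 65 (10.8%, against 3.94% of all genes above the filter). At least 2-fold lower were 0 (against 2.48%), while 58 lay within 2-fold. Ccr9, among the 7, and Cxcl13, within 2-fold, passed the filter through their smoke signal alone, so neither could count as lower. Il5, also within 2-fold, passed it through its air signal alone. The median difference of the 65 was 0.04, beside 0.06 for all genes above the filter, so the middle of the lists lay close to that of all genes. By list, the share called higher ran from 0% to 42.9%. It was 4.76% (1 of 21) for the machinery that moves the receptors. Adding an offset of 16 on the linear scale left 5 of the 7 past 2-fold (7.69% of the 65, against 2.33% of all genes under the same offset).

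The list of other Fc receptors and their partner chains, B2m among them, had 7 of 13 genes above the filter, and 2 of them, Fcer2a and Fcamr, were past 2-fold. Fcer2a encodes CD23, the low-affinity IgE receptor of B cells, which also carries IgE across airway epithelium. It stood at 8.50 and 9.62, and its difference of 1.12 was 1.09 with the offset. Tfrc, the transferrin receptor, which can also bind polymeric IgA, was at 11.40 and 12.22. The leukocyte receptors for IgG, Fcgr2b and Fcgr3, were at 6.19 and 6.42 and at 6.86 and 7.36. Fcer1g, the signalling chain of Fcgr3, was at 7.79 and 7.93. Trim21, the cytosolic antibody receptor, was dim on both arrays, at 3.69 and 3.79.

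Signals that recruit IgA plasma cells or direct the switch to IgA had 7 of 13 measured genes above the filter, of which 3 were past 2-fold. Tgfb1, whose product directs the switch to IgA, was at 11.85 and 13.11, higher by 1.26 in smoke. Ccr9, a receptor that guides lymphocytes to the gut, was below the filter in air, at 3.77, and at 5.74 in smoke; its difference of 1.97 was 1.23 with the offset. Il6, a plasma cell survival factor, was at 5.60 and 6.65, a difference of 1.05 that was 0.85 with the offset. The survival factor BAFF (Tnfsf13b) was below the filter, at 3.64 and 4.09. Ccl28, the epithelial chemokine that draws IgA plasma cells to mucosa, was also below it, at 4.22 and 4.14. Ccl25, an epithelial chemokine and the ligand of the Ccr9 receptor, was above the filter on both arrays, at 5.65 and 5.46, and Cxcl12, a chemokine of plasma cell niches, was at 7.78 and 7.79. Cxcl13, another chemokine of this list, was below the filter in air, at 4.37, and at 5.10 in smoke, higher by 0.73. Of the genes of this list past 2-fold, none was a chemokine.

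Receptors and adaptors through which cytokines and microbial products induce Pigr in epithelial cells had 15 of 16 genes above the filter, 5 higher and 10 lower in smoke. Tlr2, which senses bacterial lipoproteins, was the 1 past 2-fold, with signals of 6.72 and 7.85. Myd88, the adaptor of most Toll-like receptors, was at 9.32 in air and higher by 0.68 in smoke, and Ifngr2, a chain of the interferon gamma receptor, was at 9.60 and 10.12. On the lower side were Tnfrsf1a, the main TNF receptor, at 11.47 and 10.81, and Il1r1, the interleukin 1 receptor, at 11.09 and 10.48. The median of the 15 was -0.10.

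Transcription factors known to act on the Pigr gene lay within 2-fold: of 11 measured, 10 were above the filter and 0 passed 2-fold, with a median of 0.22. Rel, an NF-kB subunit, had the largest difference, at 9.67 in air and 10.29 in smoke. Irf1, which mediates interferon induction, was at 11.09 and 11.36, and Stat6, which mediates induction by interleukin 4, was at 11.53 and 11.79. Usf1 and Usf2, which bind the E-box shown above, were at 5.57 and 5.69 and at 9.44 and 9.49. Rela, the main activating NF-kB subunit, was at 15.51 and 15.29. Array signal of a factor's RNA does not report the activity of its protein.

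The machinery that moves the receptors through endosomes had 21 of 23 measured genes above the filter, of which 1 passed 2-fold, with 11 higher, 10 lower and a median of 0.03. Rab5b, a GTPase of early endosomes, was at 6.73 and 7.91, higher by 1.18 in smoke. Ap1m2, the epithelial subunit of the adaptor that sorts cargo to the basolateral side, was at 7.93 and 8.80, and Cltc, the clathrin heavy chain, was at 15.86 and 16.53. Rab11a, the GTPase of recycling endosomes, was at 11.21 and 10.50, and Rab17, an epithelial GTPase of transcytosis, was at 5.60 and 5.00. Mal2, which serves transcytosis to the apical side, was at 16.83 and 16.63. The transport genes thus went in both directions within 2-fold, apart from Rab5b.

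Albumin is the other cargo of FcRn. Genes of albumin and its uptake had 5 of 7 above the filter, with 0 past 2-fold, 5 lower in smoke and a median of -0.26. Alb was at 5.62 in air and 5.34 in smoke. Lrp2, which encodes megalin, an endocytic receptor for albumin, was at 13.76 and 13.50, and Dab2, an adaptor of that receptor, had the largest difference above the filter, at 6.38 and 5.58.

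**Figure D4:**
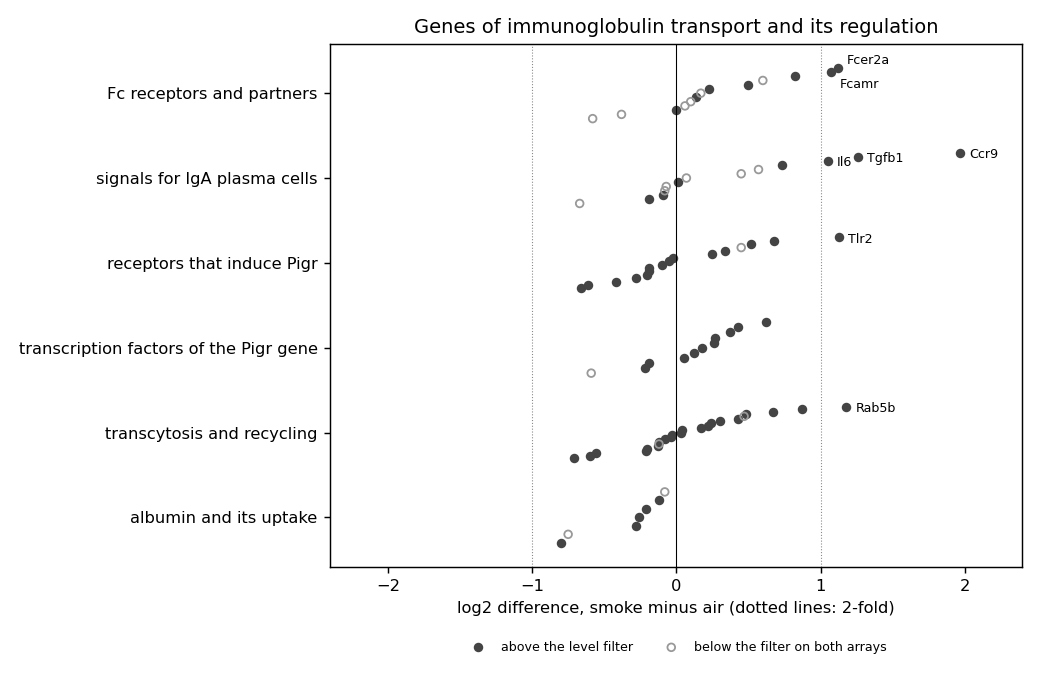
Log2 difference, smoke minus air (horizontal axis), of each measured gene in 6 lists (rows; points are stacked within a row in order of their difference). Filled points are above the level filter and open points below it on both arrays. The 7 genes past 2-fold are named, all on the higher side; Ccr9 is above the filter in smoke but below it in air.

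The identity of the sort and the cells it could also hold were read from 9 marker lists. Of 11 alveolar type 2 markers, 6 stood at the highest deposited value on both arrays, Sftpc among them, so they could show no rise. The other 5 differed by at most 0.17. Of these, Etv5, at 19.91 on both arrays, and Napsa, at 19.61 and 19.76, lay close to the highest value and had little room to rise. Epcam was at 11.09 in air and 10.92 in smoke. Of 13 measured B and plasma cell markers, 3 were above the filter (Cd79a, Cd79b and Tnfrsf13c), with a median of -0.01 and 0 past 2-fold. Cd79a, a signalling chain of the B cell receptor, was at 5.06 in air and 4.90 in smoke. Mzb1, of antibody assembly in plasma cells, was below the filter at 2.61 and 2.78. The log2 of the summed linear signal of the B and plasma cell list was 8.08 in air and 8.19 in smoke. The immunoglobulin chain genes Igha and Igkc were not analysed here. Low Jchain signal thus stood beside low Mzb1 signal, while Cd79b was at 6.86 and 7.18.

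Other airway, immune and vascular cells bear on the receptors, since airway secretory cells make Pigr, and endothelial cells and macrophages make Fcgrt. Club and secretory markers had 5 of 7 above the filter and below the highest value, 4 of them lower in smoke, with a median of -0.64; Scgb3a1 was at 6.85 and 5.02, and Scgb1a1 was at the highest value on both arrays. Their summed signal was 20.03 and 20.01 on the log2 scale. Scgb1a1 sets that sum and stood at the highest value, so the sum could show little change. Pigr was thus higher in the array in which 4 of these 5 markers were lower. Scgb3a2, the 1 that was higher, was at 8.4 in air and differed by 0.6. Cyp2f2, the brightest of the 5, was at 16.13 in air and differed by -0.33. The part of airway secretory cells in the Pigr value was not tested. Bpifb1 and Muc5b, secreted airway proteins, were at 5.56 and 4.60 and at 5.27 and 4.63.

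Endothelial markers had 11 of 11 above the filter, with 9 lower and 2 higher in smoke, a median of -0.68, and a summed signal of 15.34 in air and 14.69 in smoke on the log2 scale. Macrophage markers had 3 of 8 above the filter, all 3 lower, with a median of -0.23. Their summed signal of 11.60 in air and 10.53 in smoke was set by Chil3, at 11.27 and 9.87; Mrc1 and Csf1r differed by -0.23 and -0.15, and Marco and Itgax were below the filter on both arrays. Fcgrt was higher by 0.65 in the array in which the medians of both lists were lower. The part of these cells in the Fcgrt value was not tested. Neutrophil markers had 5 of 9 above the filter, 4 of them higher, with a median of 0.60 and a summed signal of 9.13 in air and 9.60 in smoke. Of the 4, Retnlg passed the filter through its smoke signal alone (4.25 in air, 5.15 in smoke), so it could only count as higher. S100a8 and S100a9 differed by 0.28 and -0.19, and Csf3r and Cxcr2 by 0.6 and 0.98. The part of neutrophils in the values of Tlr2 and Fcgr3, which these cells express, was not tested. Ciliated, T and NK cell and dendritic cell lists had 4 of 5, 3 of 6 and 1 of 5 measured markers above the filter, with medians of -0.14, 0.09 and -0.50. Of the ciliated markers, Cfap126 was higher by 1.56 and Tppp3 differed by -1.44, and of the T and NK cell markers Cd3d was higher by 1.03, from 3.63 in air, below the filter.

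**Figure D5:**
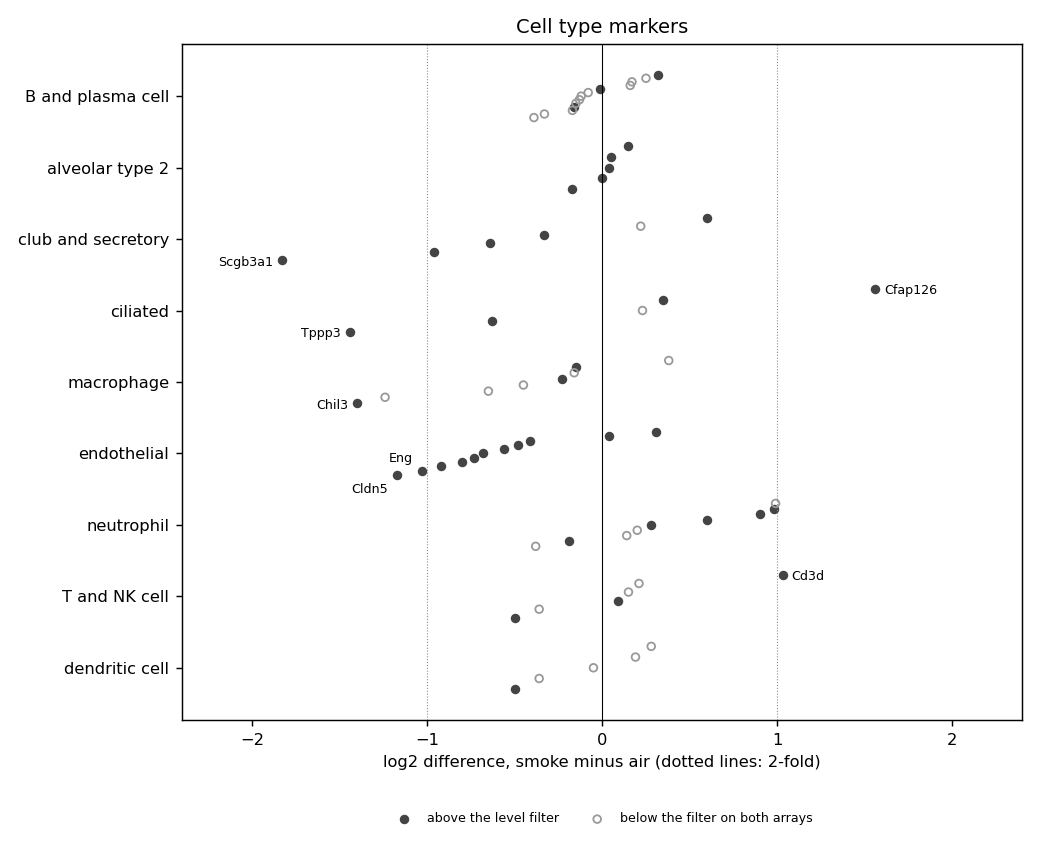
Log2 difference, smoke minus air (horizontal axis), of each measured marker in 9 lists (rows; points are stacked within a row in order of their difference); markers at the highest value on both arrays are left out. B and plasma cell markers lie within 2-fold, and 9 of 11 endothelial markers lie to the left of 0.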

How the data were processed

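The data were 1 table of 22206 probes on 2 arrays. The authors deposited 1 value per probe, taken here as log2 signal from its range of 1.55 to 19.93; per the labels no scale is stated, so the log base and the centring are unknown, while the direction follows from the sample titles. Per the submitters' processing notes, Transcriptome Analysis Console was used; the sources used here do not give the background correction, the normalization or the build. The medians were 4.61 in air and 4.53 in smoke.

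Gene names came from the platform annotation: 19572 probes had 1 symbol, 0 had several and 2634 are unnamed here. Probes of a gene were averaged, and a fold is 2 to the power of a log2 difference. On 16 genes both arrays stood at the highest value, so these genes were omitted from counts, level neighbours and medians. Python 3.11.15 with pandas 2.3.3 and numpy 2.4.6 was used, and the counting and ranking steps were tested on simulated data. The number of arrays limits the precision, and no test across samples was possible.

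Members, lists and rules were chosen with earlier results of these data known. Named genes were the members, the genes nearest to them by level and by position, up to 2 genes per list and direction past 2-fold (or the one with the largest difference), and a fixed set that included B2m, Fcmr, Trim21, Mzb1 and Rab11a; of that set Nfkb1, Igha and Igkc were not analysed here. Other list genes named, and the markers named, were chosen after their values were seen. RefSeq (GRCm38.p6) gave gene order and promoters. Alternatives were quantile normalization, centring on all probes or by level (500 genes), an offset of 16, the brightest probe, other numbers of level neighbours, and other filters and fold thresholds.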

Additional observations from a re-analysis of the deposited data

How the results depend on the processing

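Over 4 alternatives each, the log2 difference of Pigr ran from 3.14 to 3.20, that of Fcgrt from 0.50 to 0.67 and that of Jchain from -0.34 to -0.16, all with the direction reported. Taking the brightest probe of a gene could change nothing for the members, which have 1 probe each, and is not counted. With 100 level neighbours in place of 200, the share of genes at least as much lower in smoke as Jchain was 22% in place of 31.5%. The 7 list genes at least 2-fold higher became 4 with the filter at the 75th percentile, 13 at 1.5-fold and 1 at 3-fold. Those lower became 5 at 1.5-fold in place of 0. With the filter at the 75th percentile 4.03% of all genes were higher, where the lists had 9.30%. At 1.5-fold 14.5% of all genes were higher and 9.19% lower, and at 3-fold 0.633% were higher. The 1 list gene past 3-fold was Ccr9, which passed the filter through its smoke signal alone and differed by 1.23 with the offset. The other 35 of 40 alternatives moved a difference by less than the robust SD of genes of like level, a share within its binomial interval, or a count by at most 1.5 times. Some of these 35 could not have moved and say nothing about stability. The 100 genes nearest to Pigr are among its 200, so its share of 0 had to stay. The count of list genes lower, 0 as reported, could not rise under a stricter filter or at 3-fold. Nor could it rise with the offset, which only shrinks differences. No paired analysis was possible because each group has 1 array, and no array could be left out.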
